A study of Mus musculus with 14 samples.

Results

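Control myeloid progenitors were compared with control long-term hematopoietic stem cells (LT-HSCs), the extremes of the sorted hierarchy, on the 5 arrays of these cells among the 14 arrays of the study. The members are the 3 arrays labelled as myeloid progenitors and the 2 labelled as LT-HSCs from mice without Cre, and the comparison ran over 8608 genes of the 12393 with a probe set of 1 gene symbol. The study deleted Dnmt1, the maintenance methyltransferase of DNA, in blood cells, and measured RNA of LT-HSCs, multipotent progenitors (MPPs) and myeloid progenitors on Affymetrix arrays. All mice carried floxed Dnmt1 alleles (Dnmt1fl/fl) on a C57BL/6 background and were between 8 and 12 weeks old. The controls lacked the Mx-Cre transgene, whose interferon-responsive promoter drives Cre, so their Dnmt1 alleles remained floxed and undeleted by design. They nevertheless received what the knockouts received, namely 7 doses of poly(I)poly(C) on alternate days, each of 25 ug/kg. Poly(I)poly(C) is a double-stranded RNA mimic that induces interferon, so neither population comes from untreated marrow. The marrow, collected 4 days after the final dose, was pooled from 4 to 6 mice of 1 genotype per array, and magnetic depletion removed cells with mature lineage markers. Myeloid progenitors were then sorted as Kit+ Sca-1- cells and LT-HSCs as Kit+ Sca-1+ CD34- cells. The labels do not say which antibodies made up the lineage mix.

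Long-term stem cells can rebuild all blood lineages after transplantation and divide seldom, whereas Kit+ Sca-1- cells are a mixture of progenitors committed to granulocytes, monocytes, red cells and platelets. Granulocyte and monocyte commitment is known to depend on the transcription factors PU.1 and C/EBP alpha, and its first visible product is the primary (azurophil) granule, a store of myeloperoxidase and serine proteases. B cell commitment runs instead through the receptor for interleukin 7 and the factors E2A, Ebf1 and Pax5, followed by the recombinases that cut the immunoglobulin genes and by the surrogate light chain.

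Each value below is the intensity that the authors deposited for a gene's probe set, in their own arbitrary units. Differences are myeloid progenitors minus LT-HSCs on the scale of log2(intensity + 16) after quantile normalization, with the standard error of a limma fit, so a positive value means higher in myeloid progenitors. P-values were adjusted by the method of Benjamini and Hochberg over the 8608 genes, and a gene was called where its adjusted p was below 0.05. The fit called 554 genes, 6.44% of those tested, of which 351 (4.08%) were higher and 203 (2.36%) were lower in myeloid progenitors. With an array left out the count was 199 without LT-HSC array 1, 725 without LT-HSC array 2 and 303 without myeloid progenitor array 1. The median difference over all 8608 genes was 0.00. In all 554 called genes the 3 arrays of one population lay on one side of the 2 arrays of the other. Over all genes tested the arrays did not overlap in 17.6% with myeloid progenitors higher and in 15.8% with myeloid progenitors lower. The smallest called difference was 0.62 in size, and 122 called genes were more than 2 units higher and 69 more than 2 units lower on the log2 scale.

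The arrays of a population were not alike in every respect. The 3 myeloid progenitor arrays correlated with each other at r between 0.945 and 0.971 and the 2 LT-HSC arrays at 0.907, while pairs across the populations lay between 0.838 and 0.921, across genes. The highest of these cross-population values exceeds the correlation of the 2 LT-HSC arrays with each other. Median intensity was 42.4, 45.4 and 47.5 units on the myeloid progenitor arrays and 42.9 and 49.1 units on the LT-HSC arrays. The control probe set for the 3′ end of 18S ribosomal RNA read 856, 6525 and 7452 units on myeloid progenitor arrays 1 to 3, against 6184 and 8230 units on LT-HSC arrays 1 and 2. The ratio of the 3′ to the 5′ probe set of Gapdh, a sign of RNA integrity and amplification length, was 5.27, 4.30 and 2.25 in myeloid progenitors and 5.44 and 3.07 in LT-HSCs. Myeloid progenitor array 1 therefore stands apart in ribosomal RNA, and the Gapdh ratios of the populations overlap. Its part in the results was not tested beyond leaving each array out in turn.

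The genes of the sort were read first. Cd34, the sialomucin whose absence defines the stem cell gate, read 451, 352 and 295 units in myeloid progenitors, against 7.55 and 96.8 units in LT-HSCs. The difference was 2.87 ± 0.54 (adjusted p = 0.00645), and both LT-HSC arrays lay below all 3 myeloid progenitor arrays, although LT-HSC array 2 was well above array 1. Cd34 missed the threshold without LT-HSC array 1 (adjusted p = 0.0877). Kit, the stem cell factor receptor required by both gates, read 439, 457 and 349 units in myeloid progenitors and 227 and 488 units in LT-HSCs, and the groups overlapped (difference 0.25 ± 0.36, adjusted p = 0.75). Ly6a, which encodes Sca-1, was not analysed here. Dnmt1 read 1328, 2156 and 1571 units in myeloid progenitors and 2219 and 1818 units in LT-HSCs, with overlapping arrays and an adjusted p of 0.515.

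**Figure D1:**
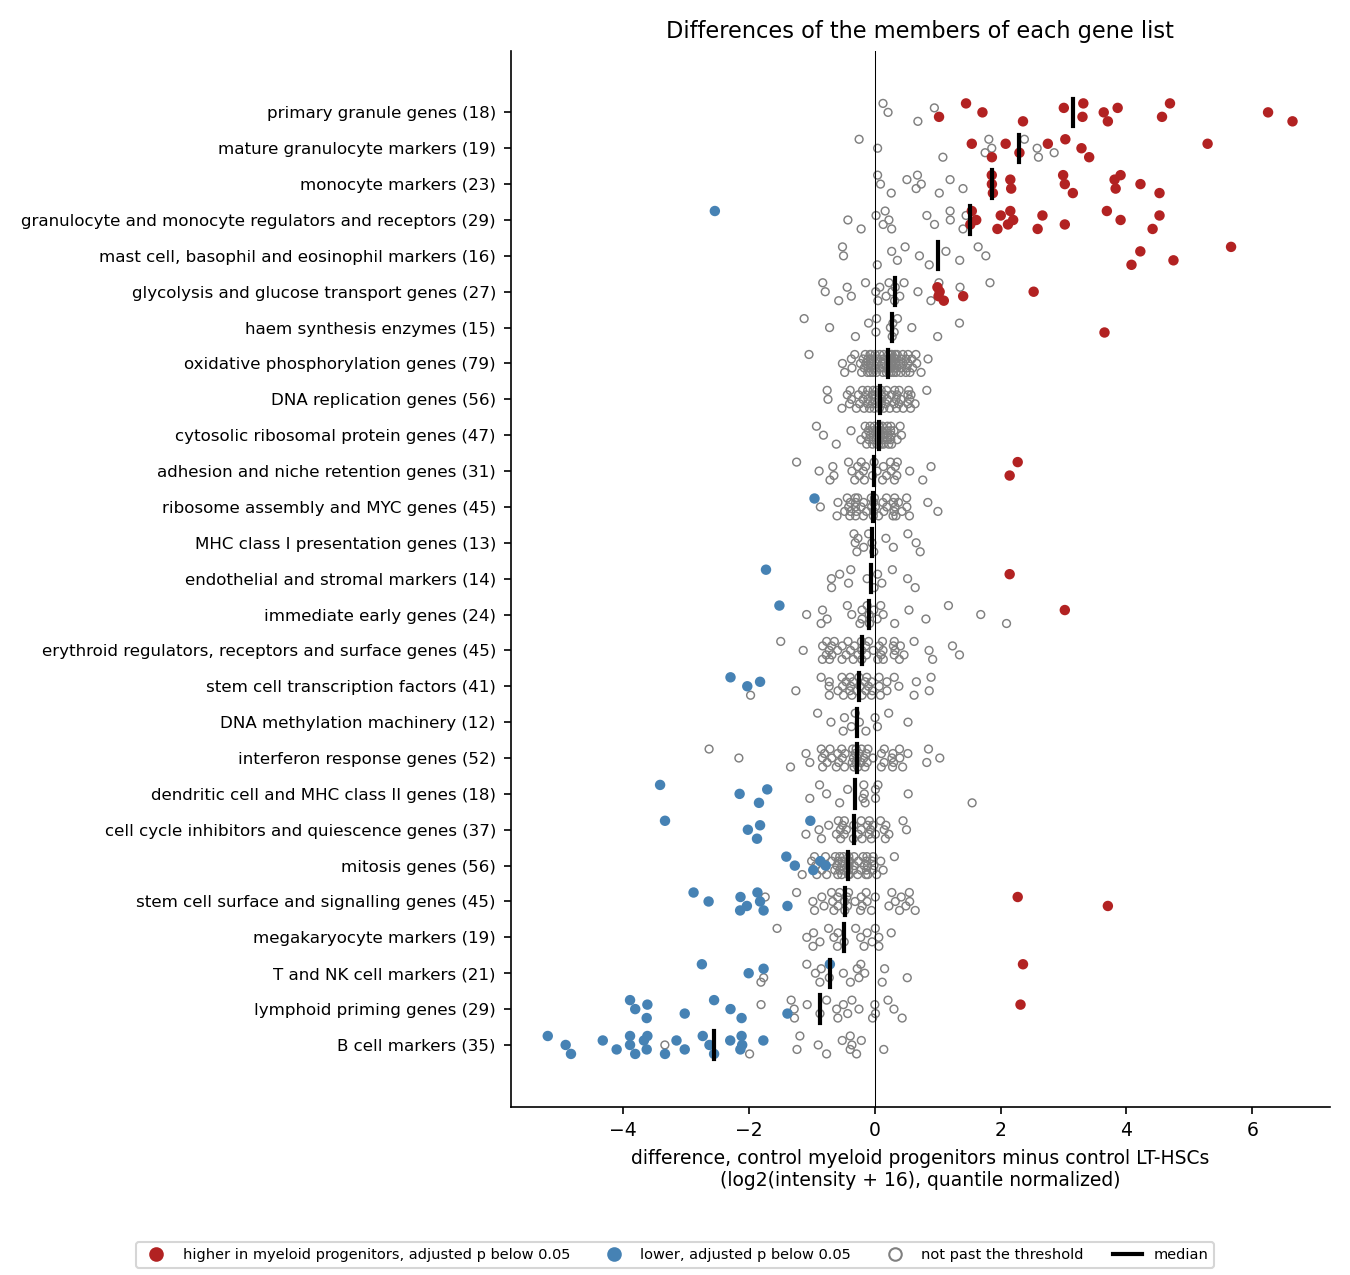
Differences between control myeloid progenitors and control LT-HSCs on the log2(intensity + 16) scale (horizontal axis) for the measured members of 27 gene lists (rows, number measured in brackets); filled points are called genes, open points are not called and black bars are medians. Primary granule genes lie furthest to the right, with a median of 3.15, and B cell markers furthest to the left, with a median of -2.55, while erythroid, replication, interferon and ribosomal protein genes gather around 0 with no call.

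Primary granule genes were the list with the highest median. In bulk samples such as these, fewer cells of a type and less RNA per cell cannot be told apart. Of 18 measured members, 14 were called higher in myeloid progenitors and 0 lower, where 4.08% of all genes tested were called higher, and the median difference was 3.15. Ctsg, cathepsin G, a serine protease of the primary granule, read 15001, 2555 and 3551 units in myeloid progenitors, against 29.8 and 26.5 units in LT-HSCs. The difference of 6.64 ± 0.59 (adjusted p = 6.68e-05) was the largest of all genes. All 3 myeloid progenitor arrays were far above both LT-HSC arrays, and array 1 stood several times above arrays 2 and 3. Elane, neutrophil elastase, read 2731, 1870.0 and 2846 units in myeloid progenitors and 22.3 and 10.4 units in LT-HSCs, with a difference of 6.25 ± 0.60 (adjusted p = 0.000112) and close agreement among the myeloid progenitor arrays. Prtn3, proteinase 3, lies next to Elane on chromosome 10. It read 2415, 2647 and 2946 units in myeloid progenitors against 205 and 327 units in LT-HSCs (difference 3.32 ± 0.33, adjusted p = 0.000117). Mpo, myeloperoxidase, the enzyme that makes hypochlorous acid in neutrophils, was not silent in LT-HSCs. It read 6367, 5359 and 6618 units in myeloid progenitors and 277 and 170.4 units in LT-HSCs (difference 4.69 ± 0.46, adjusted p = 0.000112).

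The promoters of these 4 genes are printed to show the sequence in front of the 4 granule enzymes just described, as RefSeq annotates it on GRCm38.p6, from 250 bases before to 50 bases after the annotated start. Capitals mark GAGGAA, the core word of sites bound by PU.1 and other ETS factors, as found by a search of both strands. The word was picked after the values and several other words had been looked at.
Ctsg (chr14:56102525-56102824, - strand): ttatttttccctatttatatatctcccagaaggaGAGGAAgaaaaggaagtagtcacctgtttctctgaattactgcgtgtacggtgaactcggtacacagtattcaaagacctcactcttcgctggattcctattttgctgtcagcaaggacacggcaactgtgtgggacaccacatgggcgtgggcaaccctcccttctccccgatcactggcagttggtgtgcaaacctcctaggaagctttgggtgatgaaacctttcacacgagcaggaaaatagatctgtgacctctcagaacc
Elane (chr10:79886062-79886361, + strand): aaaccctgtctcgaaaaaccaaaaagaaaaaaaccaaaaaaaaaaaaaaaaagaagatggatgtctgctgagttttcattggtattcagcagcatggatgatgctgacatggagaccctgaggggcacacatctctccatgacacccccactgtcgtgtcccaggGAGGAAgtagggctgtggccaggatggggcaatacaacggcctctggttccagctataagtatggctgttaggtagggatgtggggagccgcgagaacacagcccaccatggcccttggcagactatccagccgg
Prtn3 (chr10:79879417-79879716, + strand): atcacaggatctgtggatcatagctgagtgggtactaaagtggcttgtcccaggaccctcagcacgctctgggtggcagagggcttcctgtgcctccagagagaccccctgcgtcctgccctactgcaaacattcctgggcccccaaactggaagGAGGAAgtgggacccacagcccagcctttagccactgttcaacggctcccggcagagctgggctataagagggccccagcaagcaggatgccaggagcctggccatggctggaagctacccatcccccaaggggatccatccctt
Mpo (chr11:87793534-87793833, + strand): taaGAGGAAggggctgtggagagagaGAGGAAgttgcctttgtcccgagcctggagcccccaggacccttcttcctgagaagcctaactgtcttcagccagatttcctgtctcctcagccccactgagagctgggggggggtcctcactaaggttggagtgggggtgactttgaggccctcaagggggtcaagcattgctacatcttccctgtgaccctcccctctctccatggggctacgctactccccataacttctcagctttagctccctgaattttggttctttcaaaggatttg
GAGGAA lay once in the windows of Ctsg, Elane and Prtn3, starting 216, 85 and 95 bases before the start, and at 2 places in that of Mpo, 247 and 224 bases before it. Of the 18 granule genes 16 matched the promoter table by symbol, with 21 promoters, and 9 of these (42.9%) hold the word on either strand, against 12 of 32 promoters of the B cell genes described below (37.5%) and 28.3% of all 32851 promoters. A match is a description of the letters and not a bound site.

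Ms4a3, Gstm1 and Alas1 followed the same order. Ms4a3, a membrane protein of granulocyte and monocyte progenitors, read 2375, 2037 and 2580.0 units in myeloid progenitors against 92.2 and 75.3 units in LT-HSCs (difference 4.57 ± 0.57, adjusted p = 0.000525). Gstm1, a glutathione transferase that also stood on the stem cell list, read 1397, 1098 and 1614 units in myeloid progenitors and 71.5 and 107 units in LT-HSCs (difference 3.71 ± 0.32, adjusted p = 6.67e-05, on a probe set that may bind related transcripts). Alas1, the housekeeping form of the first enzyme of haem synthesis and so of the haem that myeloperoxidase carries, read 627, 664 and 738 units in myeloid progenitors against 39.1 and 36.2 units in LT-HSCs (difference 3.64 ± 0.53, adjusted p = 0.00121). The Alas1 probe set may also bind related transcripts. No LT-HSC array reached a myeloid progenitor array in any of these genes. The other called members of the primary granule list differed by between 1.02 (Srgn, serglycin, the proteoglycan core of granules) and 3.86 (Cst7, cystatin F). Of the 4 that were not called, Ctsc and Plac8 differed by 0.69 and 0.95. These genes were named after their values were seen. The list had 10 calls without LT-HSC array 1, and with single arrays left out the adjusted p exceeded 0.05 for Srgn without any 1 of myeloid progenitor arrays 1, 2 and 3 and LT-HSC array 1 (up to 0.335).

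Transcription factors and receptors of the granulocyte and monocyte lineages were mostly higher. Of 29 measured members 15 were called higher and 1 lower, with a median difference of 1.52. The shares over all genes tested were 4.08% higher and 2.36% lower. Among the factors, Cebpa, which encodes C/EBP alpha, read 764, 893 and 679 units in myeloid progenitors against 14.2 and 28.3 units in LT-HSCs. The difference was 4.42 ± 0.36 (adjusted p = 4.62e-05), and the arrays of each population lay close together. Cebpd, a related factor, read 215, 392 and 169 units in myeloid progenitors and 2.54 and 4.68 units in LT-HSCs, where the signal was close to the bottom of the scale (difference 3.69 ± 0.44, adjusted p = 0.000431). Irf8, the factor of monocyte and dendritic cell fate, read 1086, 1141 and 575 units in myeloid progenitors and 169 and 105 units in LT-HSCs (difference 2.59 ± 0.60, adjusted p = 0.0194). Klf4, a monocyte factor, differed by 3.02 ± 0.56 (adjusted p = 0.00539). The call of Irf8 was lost with any array but myeloid progenitor array 3 left out (adjusted p up to 0.0957). The only member called lower was Irf4, a factor of B cells and plasma cells, at -2.54 ± 0.50 (adjusted p = 0.00773), named after its value was seen. Spi1, which encodes PU.1, differed by 1.20 ± 0.41 and was not called (adjusted p = 0.111). Myb, a factor of progenitors at large, differed by 0.17 (adjusted p = 0.511). Spi1 and Myb were named after their values were seen.

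Growth factor receptors of these lineages were also higher. Csf1r, the receptor for macrophage colony stimulating factor, read 948, 872 and 496 units in myeloid progenitors against 31.8 and 34.5 units in LT-HSCs (difference 3.91 ± 0.70, adjusted p = 0.00464). The 2 LT-HSC arrays were nearly equal, and the lowest myeloid progenitor array was array 3. Csf2rb, the shared signalling chain of the receptors for interleukin 3, interleukin 5 and GM-CSF, read 163, 136 and 264 units in myeloid progenitors and 25.3 and 26.4 units in LT-HSCs (difference 2.20 ± 0.39, adjusted p = 0.00428). Csf3r, the G-CSF receptor, and Csf2ra, the GM-CSF receptor's own chain, were called at 2.12 ± 0.43 and 1.52 ± 0.28 and were chosen after their values were seen. Another probe set of Csf2ra differed by 0.01, and with the mean of its probe sets the gene was not called (0.77, adjusted p = 0.28). Without LT-HSC array 2 the adjusted p of Csf3r was 0.0664. Fcgr3, the low-affinity IgG receptor used to define granulocyte and monocyte progenitors, read 964, 828 and 1175 units in myeloid progenitors against 33.6 and 17.8 units in LT-HSCs (difference 4.53 ± 0.45, adjusted p = 0.000117). With LT-HSC array 1, LT-HSC array 2 or myeloid progenitor array 1 left out, the list had 9, 10 and 9 calls higher.

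**Figure D2:**
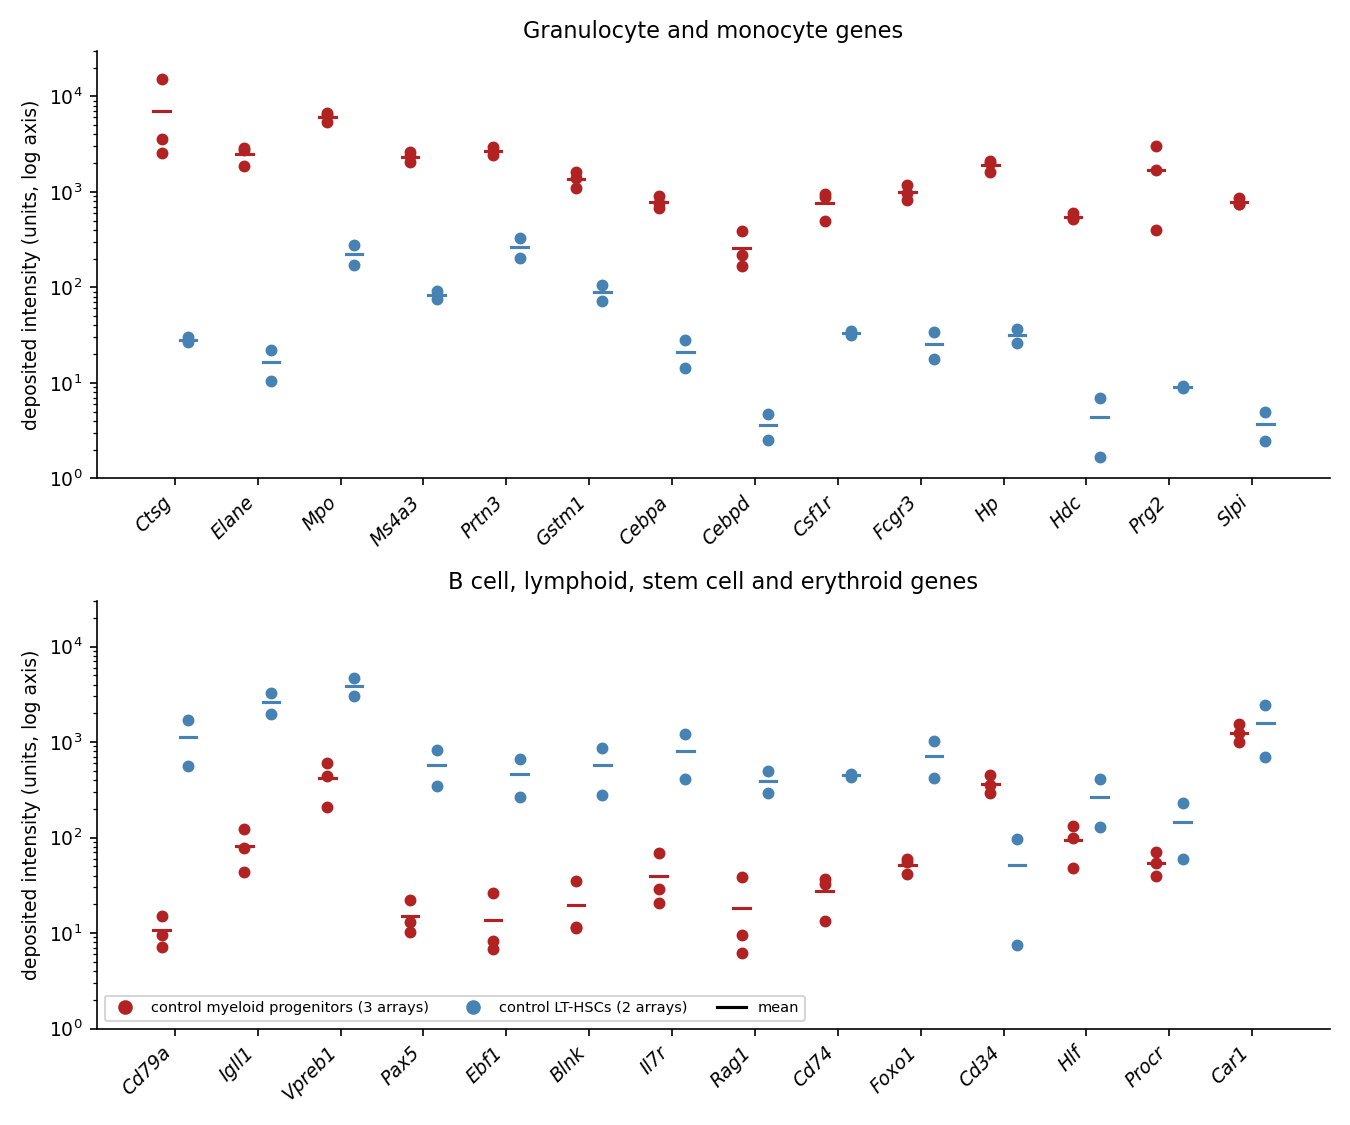
Deposited intensity on each control array (points, log axis) for 28 genes, with control myeloid progenitors in red to the left of control LT-HSCs in blue and short lines at the means. In the upper panel all 3 myeloid progenitor arrays lie above both LT-HSC arrays for each of the 14 genes, and in the lower panel the order is turned for the B cell and lymphoid genes, Cd34 is higher in myeloid progenitors, and Hlf, Procr and Car1 overlap between the populations.

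Genes of maturing granulocytes divided into called members and members that varied between arrays. Of 19 measured members (of 23 with a probe set) 9 were called higher and 0 lower, with a median of 2.30. The share called higher over all genes tested was 4.08%. Among the 19, 5 exceeded the filter's percentile on myeloid progenitor arrays only and 0 on LT-HSC arrays only, which can raise the median. With no filter the 23 members had 7 calls higher, 0 lower and a median of 1.86. Hp, haptoglobin, read 1593, 2090.3 and 1993 units in myeloid progenitors and 36.8 and 26.4 units in LT-HSCs (difference 5.29 ± 0.71, adjusted p = 0.000721). Ncf1, a subunit of the NADPH oxidase, differed by 3.41 ± 0.37 (adjusted p = 0.000209), and Pglyrp1, a peptidoglycan recognition protein of granules, by 3.03 ± 0.38 (adjusted p = 0.000525). S100a8 and Ngp behaved otherwise. S100a8, a calcium-binding protein abundant in neutrophils, read 1807, 1703 and 3715 units in myeloid progenitors against 225 and 571 units in LT-HSCs, and Ngp, neutrophilic granule protein, read 296, 191 and 1371 units against 34.4 and 55.9 units. Neither was called, at 2.60 ± 1.08 and 2.85 ± 1.55 (adjusted p = 0.199 and 0.336). Myeloid progenitor array 3 was the highest array for both. The summed intensity of the 6 defining markers of mature granulocytes was 5009, 3468 and 11470 units on myeloid progenitor arrays 1 to 3 and 522 and 1792 units on the LT-HSC arrays. The list had 5 or 6 calls with any single array other than myeloid progenitor array 2 left out.

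Monocyte markers moved with the granule genes. Of 23 measured members 13 were called higher and 0 lower, where 4.08% of all genes tested were called higher, and the median difference was 1.86. Emb, embigin, a membrane partner of lactate transporters, read 1699, 1299 and 1349 units in myeloid progenitors and 195 and 112 units in LT-HSCs (difference 3.15 ± 0.40, adjusted p = 0.000525). Mpeg1, a pore-forming protein of macrophages, differed by 2.99 ± 0.37 (adjusted p = 0.000525). F13a1, the A chain of coagulation factor XIII, read 1629, 2283 and 1532 units in myeloid progenitors against 216 and 53.4 units in LT-HSCs (difference 3.81 ± 0.89, adjusted p = 0.0202). Ccr2, the receptor that draws monocytes out of the marrow, differed by 2.16 ± 0.48 (adjusted p = 0.016), whereas Cx3cr1, a marker of later monocytes, stayed near the bottom of the scale on all 5 arrays, at 18.9, 25.5 and 26.8 units in myeloid progenitors and 20.99 and 23.8 units in LT-HSCs. With single arrays left out the adjusted p exceeded 0.05 for Ccr2 without any 1 of myeloid progenitor array 1 and LT-HSC arrays 1 and 2 (up to 0.0845), and for F13a1 without any 1 of myeloid progenitor arrays 1 and 2 and LT-HSC array 2 (up to 0.121). The lysozyme genes Lyz2 and Lyz1 differed by 1.86 ± 0.28 and 2.17 ± 0.25 (adjusted p = 0.00144 and 0.000387), where the Lyz1 probe set may bind related transcripts. LT-HSCs already carried lysozyme signal, with 617 and 376 units for Lyz2 on the 2 arrays, against 1751, 1861 and 1804 units in myeloid progenitors.

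Eosinophil and basophil genes held some of the largest differences. The mast cell, basophil and eosinophil list had 16 measured members (19 with a probe set). Of these 16, 4 were called higher and 0 lower, with a median of 1.0, where 4.08% of all genes tested were called higher. Among the 16, 8 exceeded the filter's percentile on myeloid progenitor arrays only and 0 on LT-HSC arrays only, which can raise the median. With no filter the 19 members had 4 calls higher, 0 lower and a median of 0.71. Prg2, the major basic protein of eosinophil granules, read 1685, 398 and 2991 units in myeloid progenitors against 9.25 and 8.77 units in LT-HSCs (difference 5.66 ± 0.94, adjusted p = 0.00277). Epx, eosinophil peroxidase, read 614, 117 and 942 units in myeloid progenitors and 5.42 and 6.88 units in LT-HSCs (difference 4.22 ± 1.00, adjusted p = 0.0226). For both, array 2 was the lowest and array 3 the highest of the myeloid progenitor arrays. Hdc, the enzyme that makes histamine, read 513, 603 and 531 units in myeloid progenitors and 1.66 and 7.0 units in LT-HSCs (difference 4.75 ± 0.67, adjusted p = 0.000983), and was even over the myeloid progenitor arrays. The Hdc probe set may bind related transcripts. Mcpt8, a basophil protease, differed by 4.08 ± 0.84 (adjusted p = 0.0102). The mast cell genes Cpa3 (a carboxypeptidase), Fcer1a and Ms4a2 (chains of the IgE receptor) were not called, at 1.35 ± 0.38, 1.64 ± 1.08 and 1.77 ± 0.76. The list had 2 calls without LT-HSC array 1. The adjusted p exceeded 0.05 for Mcpt8 without LT-HSC array 1 (0.0797), and for Epx without any 1 of myeloid progenitor arrays 1 and 3 and LT-HSC arrays 1 and 2 (up to 0.143).

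Of the other genes among the 15 with the largest positive differences, all but Clec7a lay on none of these myeloid lists. Slpi, an inhibitor of leukocyte serine proteases, read 754, 751 and 868 units in myeloid progenitors and 4.99 and 2.46 units in LT-HSCs (difference 5.31 ± 0.55, adjusted p = 0.000157). Anxa3, an annexin of neutrophil granules, read 740.2, 439 and 724 units in myeloid progenitors and 6.09 and 4.36 units in LT-HSCs (difference 4.85 ± 0.62, adjusted p = 0.000525). Both were close to the bottom of the scale on the 2 LT-HSC arrays and even over the 3 myeloid progenitor arrays. Prom1, the membrane protein prominin 1, and Gria3, a subunit of AMPA glutamate receptors of neurons, differed by 4.36 ± 0.69 and 4.30 ± 0.41 (adjusted p = 0.00218 and 0.000112). Clec7a, the beta-glucan receptor dectin 1, which stands on the monocyte list, differed by 4.22 ± 0.93 (adjusted p = 0.0153). Its adjusted p was 0.112 without LT-HSC array 1.

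B cell genes were the list with the lowest median. Of 35 measured members 22 were called lower in myeloid progenitors and 0 higher, where 2.36% of all genes tested were called lower, and the median difference was -2.55. Cd79a, a signalling chain of the B cell receptor, read 15.2, 9.6 and 7.2 units in myeloid progenitors, against 1682 and 559 units in LT-HSCs (difference -5.20 ± 0.71, adjusted p = 0.000781). It was the most negative difference of all genes, and LT-HSC array 1 was well above array 2. Igll1, a chain of the surrogate light chain of pre-B cells, read 124, 77.1 and 43.5 units in myeloid progenitors and 3275 and 1978 units in LT-HSCs (difference -4.83 ± 0.92, adjusted p = 0.00657, on a probe set that may bind related transcripts). Vpreb1, its partner, read 598, 445 and 208 units in myeloid progenitors and 4729 and 3010.2 units in LT-HSCs, without overlap, but was not called (difference -3.34 ± 1.08, adjusted p = 0.0906). Igll1 was not called without LT-HSC array 1 (adjusted p = 0.0817).

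The transcription factors of B cell commitment were lower as well. Pax5, which holds cells to the B lineage, read 13.1, 22.1 and 10.2 units in myeloid progenitors and 817 and 346 units in LT-HSCs (difference -4.10 ± 0.52, adjusted p = 0.000525). Ebf1, which acts before Pax5, read 26.2, 6.78 and 8.3 units in myeloid progenitors and 658 and 264 units in LT-HSCs (difference -3.89 ± 0.56, adjusted p = 0.00109). On the myeloid progenitor arrays Pax5 and Ebf1 were close to the bottom of the scale. Pou2af1, a coactivator of octamer factors in B cells, differed by -4.32 ± 0.86 (adjusted p = 0.00818), and Lef1, a factor of the Wnt pathway in lymphoid progenitors, by -2.73 ± 0.30 (adjusted p = 0.000209). Foxo1, needed for expression of the interleukin 7 receptor and the recombinases in B cell precursors, read 55.4, 59.4 and 41.6 units in myeloid progenitors and 1025 and 418 units in LT-HSCs (difference -3.33 ± 0.37, adjusted p = 0.000265). The Foxo1 probe set may bind related transcripts. Tcf3, which encodes E2A, differed by -2.12 ± 0.41 (adjusted p = 0.00686) and was named after its value was seen. Pou2af1 and Tcf3 were not called without LT-HSC array 1 (adjusted p = 0.122 and 0.109).

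Receptors and recombination genes completed this group. Il7r, the receptor for interleukin 7, read 68.8, 20.6 and 29.1 units in myeloid progenitors and 1209 and 406 units in LT-HSCs (difference -3.81 ± 0.63, adjusted p = 0.00277). Rag1, a recombinase subunit, read 38.96, 6.23 and 9.53 units in myeloid progenitors and 494 and 291 units in LT-HSCs (difference -3.61 ± 0.58, adjusted p = 0.0024), and its partner Rag2 differed by -3.02 ± 0.46 (adjusted p = 0.00178). Dntt, the terminal transferase that adds bases at the joints, read 551, 100.3 and 54.3 units in myeloid progenitors against 2479.8 and 1563 units in LT-HSCs (difference -3.62 ± 0.85, adjusted p = 0.0211). Blnk, an adaptor of B cell receptor signalling, differed by -3.89 ± 0.47 (adjusted p = 0.000502). Gfra2, a receptor subunit of the GDNF family, read 41.1, 90.6 and 38.5 units in myeloid progenitors and 2504 and 1748 units in LT-HSCs (difference -4.91 ± 0.81, adjusted p = 0.00277). Cplx2 and Akap12, also named for the size of their negative differences, differed by -4.23 ± 0.60 and -3.67 ± 0.65 (adjusted p = 0.000954 and 0.00443). The immunoglobulin kappa gene Igk differed by -4.19 ± 0.92 (adjusted p = 0.0152) on the probe set used, while another of its probe sets differed by 0.09, so the gene has no single direction here. Igkv8-30, a kappa variable segment on a probe set that may bind related segments, differed by -4.51 ± 0.75 (adjusted p = 0.00279). Leaving out arrays took the adjusted p past 0.05 for Il7r without LT-HSC array 1 (0.0564), and for Dntt without any 1 of myeloid progenitor arrays 2 and 3 and LT-HSC array 1 (up to 0.178), and for Igk without any 1 of myeloid progenitor arrays 1 and 3 and LT-HSC arrays 1 and 2 (up to 0.0769).

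The promoters of Cd79a and Igll1 are printed for comparison with those of the granule genes, from RefSeq on GRCm38.p6 with the same window. Capitals mark CAGGTG or its reverse complement CACCTG, the word bound by E2A among other basic helix-loop-helix factors, again picked after other words had been looked at.
Cd79a (chr7:24897247-24897546, + strand): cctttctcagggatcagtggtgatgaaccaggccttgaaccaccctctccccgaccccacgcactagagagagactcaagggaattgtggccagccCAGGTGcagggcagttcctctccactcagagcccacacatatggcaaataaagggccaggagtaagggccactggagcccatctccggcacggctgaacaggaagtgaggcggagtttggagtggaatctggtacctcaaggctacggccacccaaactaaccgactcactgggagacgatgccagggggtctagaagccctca
Igll1 (chr16:16863936-16864235, - strand): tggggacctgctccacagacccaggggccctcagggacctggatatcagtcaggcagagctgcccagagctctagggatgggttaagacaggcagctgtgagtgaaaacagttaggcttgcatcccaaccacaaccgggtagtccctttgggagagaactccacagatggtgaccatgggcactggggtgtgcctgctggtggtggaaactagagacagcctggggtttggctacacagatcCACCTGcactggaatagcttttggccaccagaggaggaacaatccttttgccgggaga
The word starts 154 bases before the start of Cd79a and, on the other strand, 8 bases before that of Igll1. Of the 35 B cell genes 26 matched by symbol, with 32 promoters, and 12 of these (37.5%) hold it on either strand, against 20.2% of all 32851 promoters and 9.52% of the 21 granule promoters.

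The signal of the B cell list was shared unequally by the stem cell arrays. The summed intensity of 7 of the 8 defining B cell markers was 985, 705 and 459 units on myeloid progenitor arrays 1 to 3, against 12400.0 and 6824 units on LT-HSC arrays 1 and 2, where each of the 7 was above the 40th percentile of its array. None of the 7 was near 0 on an LT-HSC array, with the lowest reading at 182 units. Of the later B cell genes on the list, Ms4a1 (CD20) and Cd22 were not called, with differences of -0.21 and -0.39. Both were named after their values were seen. Cd22 read 7.45, 14.98 and 12.16 units in myeloid progenitors and 26.95 and 14.5 units in LT-HSCs, close to the bottom of the scale. On the knockout arrays limma called Cd22 lower, at -1.69 ± 0.43 (adjusted p = 0.0427). Without LT-HSC array 1 the list had 12 calls lower and a median of -2.25, and every other omission left between 19 and 23. The part of other cells in the stem cell gate in this result was not tested.

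**Figure D3:**
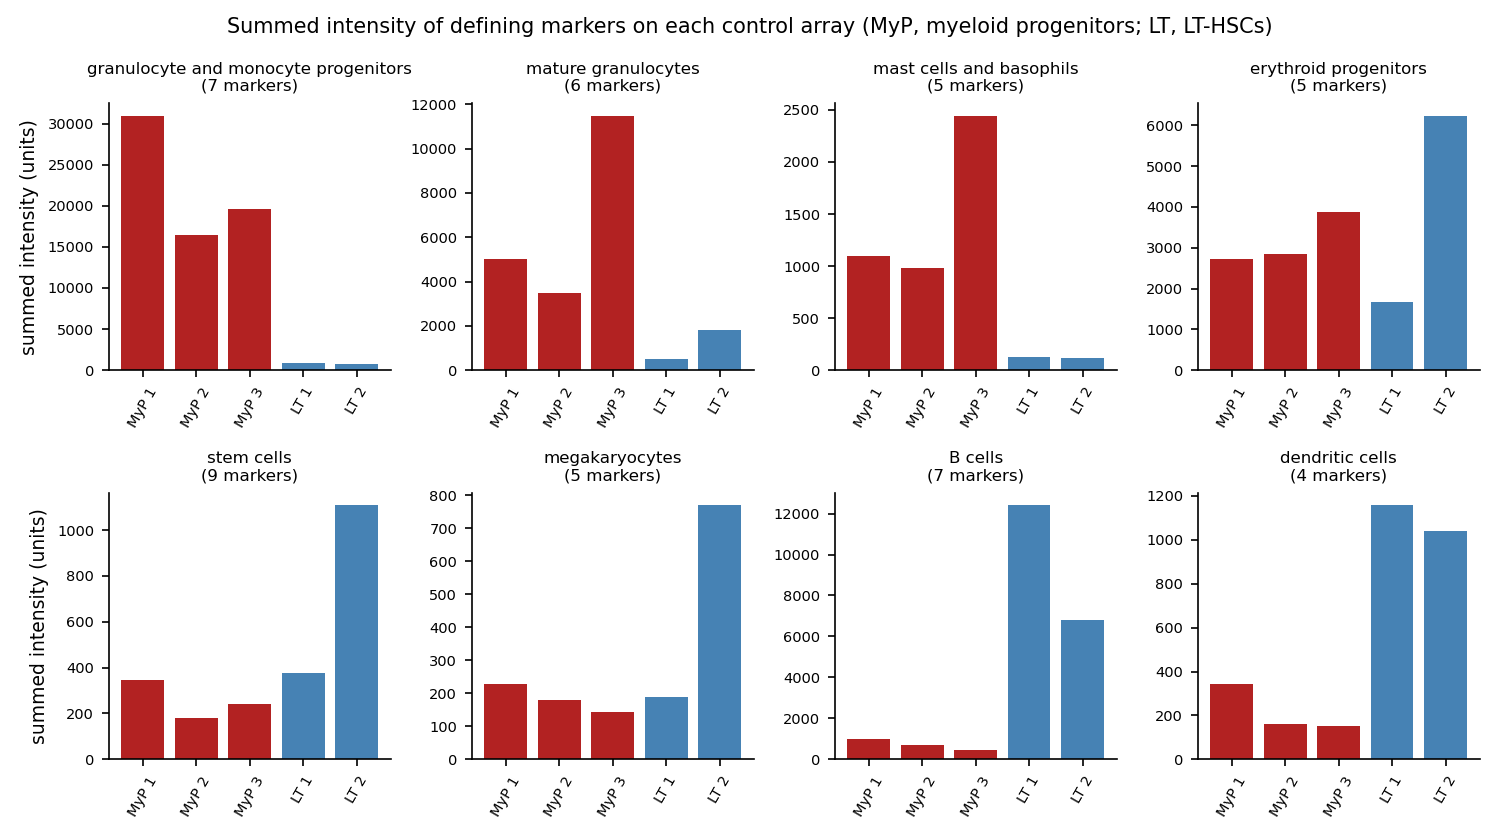
Summed intensity (vertical axes, deposited units, each starting at 0) of the defining markers of 8 cell types on each control array, with the 3 myeloid progenitor arrays in red to the left of the 2 LT-HSC arrays in blue. Granulocyte and monocyte progenitor markers sum to between 16480 and 30920 units on the myeloid progenitor arrays and to 827 and 750 units on the LT-HSC arrays, B cell markers are highest on LT-HSC array 1, and stem cell, megakaryocyte and erythroid markers are highest on LT-HSC array 2.

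The lymphoid priming list shares many genes with the B cell list. Over 29 measured members the list had 9 calls lower, 1 higher and a median of -0.87, where 2.36% of all genes tested were called lower and 4.08% higher. All but Bcl11a and Ltb (lymphotoxin beta) of those 9 genes also stand on the B cell list. Bcl11a, a factor needed for lymphoid development, read 133, 197 and 303 units in myeloid progenitors and 941 and 1092 units in LT-HSCs (difference -2.29 ± 0.34, adjusted p = 0.00145). Flt3, the cytokine receptor of lymphoid-primed progenitors, was not called at -0.43 ± 0.64 (adjusted p = 0.76), nor was Ikzf1, which encodes Ikaros, at -0.60 ± 0.23 (adjusted p = 0.162). The 1 member called higher was Hvcn1, a proton channel of phagocytes and B cells, at 2.32 ± 0.40 (adjusted p = 0.00379). Flt3, Ikzf1 and Hvcn1 were named after their values were seen. Without LT-HSC array 1 the list had 4 calls lower, and without myeloid progenitor array 3 it had 6. Hvcn1 was not called without LT-HSC array 1 (adjusted p = 0.0576).

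The genes of MHC class II presentation were lower in myeloid progenitors, whereas the regulators of the list were not called. Of 18 measured members of the dendritic cell and class II list 4 were called lower and 0 higher, with a median of -0.31. Of all genes tested 2.36% were called lower. Cd74, the invariant chain that escorts class II molecules, read 36.9, 32.4 and 13.4 units in myeloid progenitors and 468 and 434 units in LT-HSCs (difference -3.41 ± 0.42, adjusted p = 0.000502). The other 3 were the class II chains H2-Eb1, H2-Ab1 and H2-Aa, with differences of -2.15 ± 0.45, -1.84 ± 0.43 and -1.71 ± 0.42 (adjusted p = 0.0111, 0.0203 and 0.0256). Both LT-HSC arrays were above all 3 myeloid progenitor arrays for each chain. The probe sets of H2-Ab1 and H2-Aa may bind related transcripts. Without such probe sets H2-Ab1 differed by -0.58 (adjusted p = 0.479) and the list had 2 calls. The median of the list was -0.62 without LT-HSC array 1 and -0.06 without LT-HSC array 2. Without LT-HSC array 1 the list had 1 call lower, and it had 2 without myeloid progenitor array 2 or 3 and with the compared groups alone. T and NK cell markers, of which 21 of 31 were measured, had 4 calls lower, 1 higher and a median of -0.71. Of the 21, 8 exceeded the 40th percentile on LT-HSC arrays only and 2 on myeloid progenitor arrays only, which can lower the median. Without the filter the 31 members had 3 calls lower, 1 higher and a median of -0.39. The shares over all genes tested were 2.36% lower and 4.08% higher. Il2rb, the interleukin 2 receptor beta chain, read 5.37, 6.05 and 6.83 units in myeloid progenitors and 44.6 and 119.9 units in LT-HSCs (difference -2.0 ± 0.34, adjusted p = 0.00319), and Ccl5, a chemokine, differed by -2.75 ± 0.66 (adjusted p = 0.0229). Thy1, a surface protein found on some stem cells as well as T cells, differed by -1.77 ± 0.39 (adjusted p = 0.0148). The member called higher, Nkg7, a granule membrane protein also on the primary granule list, differed by 2.36 ± 0.41 (adjusted p = 0.004). Cd3e and Cd3g, chains of the T cell receptor complex, read at most 39.8 units on any of the 5 arrays and were not called, at -0.87 and -0.85. Calls were lost for H2-Eb1, Thy1 and Nkg7 without LT-HSC array 1 (0.122, 0.194 and 0.0702), and for H2-Ab1 without any 1 of myeloid progenitor arrays 2 and 3 and LT-HSC array 1 (up to 0.196), and for H2-Aa without any 1 of myeloid progenitor arrays 2 and 3 and LT-HSC arrays 1 and 2 (up to 0.0986), and for Ccl5 without any 1 of myeloid progenitor arrays 1 and 2 and LT-HSC arrays 1 and 2 (up to 0.136), where the brackets hold adjusted p-values. The T and NK list had 2 calls lower with either of myeloid progenitor arrays 1 and 2 left out and 1 without LT-HSC array 1, and its median was -0.45 without LT-HSC array 2.

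Most stem cell genes were not called, although the share called lower was above that of all genes. Of 41 measured stem cell transcription factors 3 were called lower in myeloid progenitors and 0 higher, where 2.36% of all genes tested were called lower, and the median was -0.25. The 3 were Bcl11a, given above, Id3, an inhibitor of E proteins, at -2.03 ± 0.43 (adjusted p = 0.0123), and Ndn, necdin, a growth suppressor, at -1.82 ± 0.48 (adjusted p = 0.0365). Hlf, a factor that marks stem cells in mouse marrow, read 132, 48.3 and 98.7 units in myeloid progenitors and 128 and 406 units in LT-HSCs (difference -1.25 ± 0.53, adjusted p = 0.206). LT-HSC array 1 lay within the range of the myeloid progenitor arrays and LT-HSC array 2 above it. Erg, an ETS factor of stem cells, did not overlap between the groups and just missed the threshold (difference -1.97 ± 0.56, adjusted p = 0.0521). Meis1, a partner of Hox proteins, differed by -0.72 ± 0.36 and Hoxb5 by -0.38 ± 0.50, with overlapping arrays. Their adjusted p exceeded 0.05 without LT-HSC array 1 for Id3 (0.177) and without any single array for Ndn (up to 0.244). The median of the list was -0.54 without LT-HSC array 1 and, on the other side of 0, 0.10 without LT-HSC array 2, where 2 members were called higher.

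Surface and signalling genes of stem cells, of which 45 of 53 were measured, had 9 calls lower, 2 higher and a median of -0.47, where 2.36% of all genes tested were called lower. Gimap6 and Gimap1, GTPases of lymphocyte survival that are also expressed in stem cells, were both called. Gimap6 read 83.6, 24.1 and 33.2 units in myeloid progenitors, against 484 and 364 units in LT-HSCs (difference -2.88 ± 0.60, adjusted p = 0.0107), and Gimap1 differed by -2.13 ± 0.42 (adjusted p = 0.00787). Other called members, named after their values were seen, were Socs2, a feedback inhibitor of cytokine signalling, at -2.14 ± 0.55, and Adgrg1, an adhesion receptor of stem cells, at -2.03 ± 0.46 (adjusted p = 0.0344 and 0.0177). The Adgrg1 probe set may bind related transcripts. Procr, the endothelial protein C receptor and a stem cell marker, read 53.6, 69.9 and 39.2 units in myeloid progenitors and 59.3 and 232 units in LT-HSCs, and was not called (difference -0.96 ± 0.62, adjusted p = 0.439, on a probe set that may bind related transcripts). Slamf1, the CD150 antigen, read 22.7, 13.7 and 14.2 units in myeloid progenitors and 13.02 and 119 units in LT-HSCs (difference -0.84 ± 0.49, adjusted p = 0.373). In both genes only LT-HSC array 2 stood out. Alcam, an adhesion molecule, was called higher at 2.27 ± 0.41 (adjusted p = 0.00493), beside Gstm1. With arrays left out the adjusted p exceeded 0.05 for Gimap6, Gimap1 and Alcam without LT-HSC array 1 (0.113, 0.0883 and 0.0797), and for Socs2 without any single array (up to 0.235), and for Adgrg1 without any 1 of myeloid progenitor arrays 1 and 3 and LT-HSC array 1 (up to 0.154).

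The check of the stem cell label against its defining markers thus rests on 1 array. The 9 measured of 11 defining markers summed to 346, 181 and 240.4 units on myeloid progenitor arrays 1 to 3 and to 376 and 1108 units on LT-HSC arrays 1 and 2, and 3 and 7 of them lay above the 40th percentile of the LT-HSC arrays. None of the 8 that passed the filter was called. On the 2 control MPP arrays, sorted as Kit+ Sca-1+ CD34+, the same markers summed to 2498 and 940.0 units, above LT-HSC array 1 and on either side of array 2. The LT-HSC arrays, and array 1 above all, are therefore described by their gate rather than by these markers. Without LT-HSC array 1 the surface list had 2 calls lower and a median of -1.0, without LT-HSC array 2 it had 7 calls lower and a median of -0.08, and leaving out any myeloid progenitor array left 4 or 5.

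Erythroid and megakaryocytic genes did not separate the populations. Of 45 measured erythroid regulators, receptors and surface genes 0 were called in limma's fit, 5 were lower and 3 higher at an unadjusted p under 0.05, and the median was -0.20. Gata1, the master factor of red cells and platelets, read 147, 209.6 and 217 units in myeloid progenitors and 139 and 587 units in LT-HSCs (difference -0.59 ± 0.48, adjusted p = 0.534). Klf1, its erythroid partner, read 172, 174 and 315 units in myeloid progenitors and 179 and 653 units in LT-HSCs (difference -0.68 ± 0.58, adjusted p = 0.567). Car1, the carbonic anhydrase of early red cell precursors, read 1242, 993 and 1528 units in myeloid progenitors and 700.5 and 2449 units in LT-HSCs (difference -0.14 ± 0.46, adjusted p = 0.897). For all 3, LT-HSC array 2 was the highest of the 5 arrays. The 5 measured defining erythroid markers summed to 2718, 2844 and 3880.0 units in myeloid progenitors and to 1667 and 6228 units in LT-HSCs. The median of the list was -0.67 without LT-HSC array 1 and 0.48 without LT-HSC array 2, where 5 members were called higher and 1 lower.

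Among 15 haem synthesis genes Alas1 alone was called, where 4.08% of all genes tested were called higher. Alas2, the erythroid form of the same enzyme, differed by 0.59 ± 0.46 (adjusted p = 0.523) and was named after its value was seen. Megakaryocyte markers, 19 of 25 measured, had 0 calls by limma, 3 lower and 0 higher at an unadjusted p under 0.05, and a median of -0.49. Without the filter the median of the 25 was -0.17. Pf4, platelet factor 4, read 155, 47.2 and 23.5 units in myeloid progenitors and 79.8 and 503 units in LT-HSCs (difference -1.55 ± 0.85, adjusted p = 0.339), and LT-HSC array 2 was again the highest. The list's median was -0.999 without LT-HSC array 1, 0.09 without LT-HSC array 2 and -0.28 without myeloid progenitor array 1.

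Mitosis genes included calls lower in myeloid progenitors, and DNA replication genes included no call. Of 56 measured mitosis genes 5 were called lower in myeloid progenitors and 0 higher, where 2.36% of all genes tested were called lower. A negative difference was found for 52, and the median was -0.42. Ccna2, cyclin A2, read 1007, 809.9 and 957 units in myeloid progenitors and 1627 and 1424 units in LT-HSCs (difference -0.78 ± 0.19, adjusted p = 0.0256). Cdc25b, a phosphatase that starts mitosis, and Ckap2, a spindle protein, differed by -1.40 ± 0.34 and -1.27 ± 0.25 (adjusted p = 0.0261 and 0.00802). Ube2c, which marks cyclins for destruction, differed by -0.86 ± 0.22 (adjusted p = 0.0352). The calls depended on the fit: 0 remained without LT-HSC array 1 or with the compared groups alone, and between 1 and 3 with any other array left out. The median was -0.14 without LT-HSC array 1 and -0.80 without LT-HSC array 2, and on the knockout arrays no member was called and the median was -0.17. All 4 genes named here had an adjusted p above 0.05 without LT-HSC array 1, up to 0.244. Of 56 replication genes limma called 0, with 4 higher and 1 lower at an unadjusted p under 0.05 and a median of 0.09.

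Inhibitors of the cell cycle and quiescence genes had 5 calls lower of 37 measured, 0 higher and a median of -0.33. Of all genes tested 2.36% were called lower. Cdkn1a, the inhibitor p21, read 47.8, 42.5 and 87.7 units in myeloid progenitors and 272 and 239.6 units in LT-HSCs (difference -1.87 ± 0.29, adjusted p = 0.00201). Ccnd3, a G1 cyclin important in B cell precursors and on this list as a regulator of cycle entry, differed by -2.02 ± 0.32 (adjusted p = 0.00211). The other called members were Foxo1 and Ndn, given above, and Cdkn2d, the inhibitor p19, at -1.02 ± 0.26 (adjusted p = 0.0304). The inhibitors Cdkn1b (p27) and Cdkn1c (p57), linked to stem cell quiescence, were not called at -0.61 ± 0.43 and -0.21 ± 0.28. Both were named after their values were seen. Another probe set of Cdkn1b differed by -1.08. Cdkn1c read 5.71, 1.08 and 3.24 units in myeloid progenitors and 6.22 and 7.65 units in LT-HSCs. These readings are close to the bottom of the scale, where a difference could hardly be seen. With LT-HSC array 1, myeloid progenitor array 1 or myeloid progenitor array 2 left out, the list had 3 calls. Its median was -0.14 without LT-HSC array 1, -0.59 without LT-HSC array 2 and -0.12 without myeloid progenitor array 3. The adjusted p of Cdkn2d exceeded 0.05 without any single array but myeloid progenitor array 3 (up to 0.11).

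In metabolism the glycolysis list had 6 calls higher of 27 measured, 0 lower and a median of 0.33. The shares over all genes tested were 4.08% higher and 2.36% lower. Ldhb, a lactate dehydrogenase subunit, read 747, 359 and 385 units in myeloid progenitors and 25.6 and 148 units in LT-HSCs (difference 2.53 ± 0.50, adjusted p = 0.00801). Hk2, hexokinase 2, which traps glucose in the cell, read 1883, 1597 and 1667 units in myeloid progenitors and 502 and 814 units in LT-HSCs (difference 1.41 ± 0.27, adjusted p = 0.00639). Pgam1 and Pgk1, enzymes of the lower pathway, differed by 1.03 ± 0.15 and 1.10 ± 0.27 (adjusted p = 0.00122 and 0.0266). Leaving out any array but LT-HSC array 2 left 3 or 4 calls, and the adjusted p exceeded 0.05 for Ldhb and Hk2 without LT-HSC array 1 (0.122 and 0.0948), and for Pgk1 without any 1 of myeloid progenitor arrays 1 and 3 and LT-HSC arrays 1 and 2 (up to 0.167). Of 79 oxidative phosphorylation genes limma called 0, with 6 higher and 2 lower at an unadjusted p under 0.05 and a median of 0.21, which was -0.13 without LT-HSC array 1 and 0.50 without LT-HSC array 2. Among 47 cytosolic ribosomal protein genes limma called 0, with 2 higher and 3 lower at that level. Their median was 0.07 (-0.09 without LT-HSC array 1). Among 45 ribosome assembly and MYC genes it called 1 lower, where 2.36% of all genes tested were called lower. This was Bysl, at -0.96 ± 0.27 (adjusted p = 0.0496, and up to 0.125 with a myeloid progenitor array left out). Its difference was -0.69 without LT-HSC array 1, and another probe set of Bysl differed by -0.07.

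Interferon response genes, which poly(I)poly(C) induces, were called in neither direction, with 2 lower and 2 higher of 52 at an unadjusted p under 0.05 in the limma fit and a median of -0.29. Iigp1, an interferon-induced GTPase, was the member with the smallest p, at 12.1, 9.68 and 106 units in myeloid progenitors and 100.1 and 324 units in LT-HSCs (difference -2.16 ± 0.67, adjusted p = 0.0764). The median was -0.84 without LT-HSC array 1 and 0.53 without LT-HSC array 2, and it was 0.36 with array weights, so the list had no settled side of 0. Among 12 genes of the DNA methylation machinery and 13 of MHC class I presentation limma called 0, with 0 and 1 at an unadjusted p under 0.05. Of 31 adhesion and niche genes Alcam and Vcam1 were called higher, with 0 calls without LT-HSC array 1 and 1 without any single myeloid progenitor array. Vcam1, also expressed by marrow macrophages and stroma, read 108, 103 and 137 units in myeloid progenitors and 7.34 and 22.2 units in LT-HSCs (difference 2.15 ± 0.59, adjusted p = 0.0484, and up to 0.299 with any single array left out). The 6 defining endothelial and stromal markers summed to at most 45.9 units on a myeloid progenitor array and to at most 60.1 units on an LT-HSC array, and none exceeded the 40th percentile of any of the 5 arrays. Few members were called in the adhesion list above and the immediate early list below, near the shares over all genes (4.08% higher, 2.36% lower). Immediate early genes had 1 call in each direction of 24, Klf4 and Zfp36l1, an RNA-binding protein that differed by -1.51 ± 0.29 (adjusted p = 0.00725, and 0.106 without LT-HSC array 1).

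The 2 control MPP arrays place the called genes between the ends, as a description without a test, since the ends share their arrays with the comparison that chose the genes. Of the 351 genes called higher in myeloid progenitors, the MPP mean lay between both ends but nearer to myeloid progenitors for 202 and nearer to LT-HSCs for 103, and it lay beyond myeloid progenitors for 42 and beyond LT-HSCs for 4. Of the 203 called lower, the mean lay nearer to myeloid progenitors for 106, nearer to LT-HSCs for 50, beyond myeloid progenitors for 40 and beyond LT-HSCs for 7. Mpo read 3952 and 5854 units on the MPP arrays, within reach of the myeloid progenitor arrays. Ctsg read 619.8 and 2785 units there and Csf1r 59.6 and 448 units, with the 2 arrays far apart. For Ctsg the higher MPP array lay above the lowest myeloid progenitor array, which read 2555 units. Cebpa stood at 318 and 462 units. On the other side Cd79a read 19.01 and 4.14 units and Pax5 29.6 and 6.26 units in MPPs, at the level of the myeloid progenitor arrays. Dntt at 2124 and 753 units, Cd74 at 312 and 203 units and Igk at 4081 and 333 units were instead high in MPPs too.

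**Figure D4:**
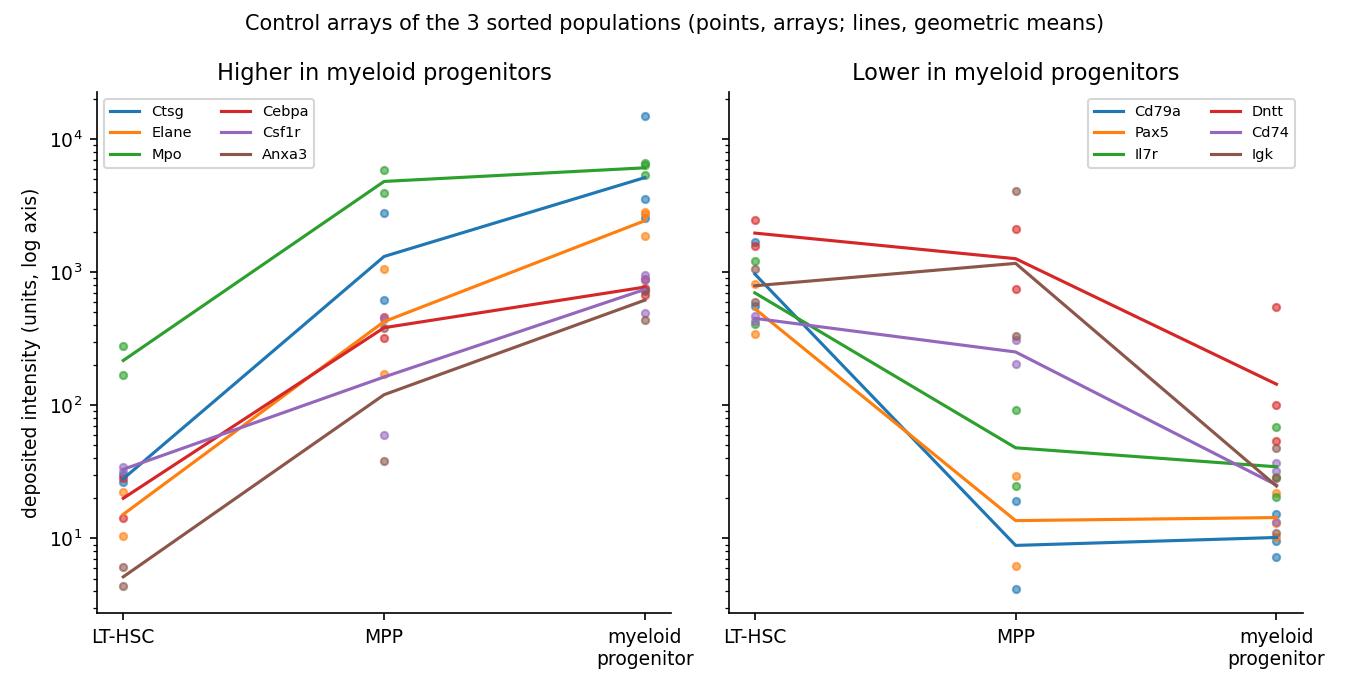
Deposited intensity (log axis) of 12 genes on the control arrays of LT-HSCs, MPPs and myeloid progenitors, with points for arrays and lines through geometric means. Mpo has nearly reached its myeloid progenitor level in MPPs, while the means of Ctsg and Elane lie in between. Cd79a and Pax5 are low in MPPs while Dntt, Cd74 and Igk are not.

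The knockout arrays offered the same comparison in other mice. Knockout littermates carried Mx-Cre in addition and received the same injections, and their 3 myeloid progenitor and 2 LT-HSC arrays shared no array with the control comparison. The same fit called 323 genes there, 3.75% of those tested, 206 (2.39%) higher and 117 (1.36%) lower. Without a knockout LT-HSC array the count was 93 (array 1 left out) or 694 (array 2 left out), and without myeloid progenitor array 1, 2 or 3 it was 168, 205 and 146. Of the 554 genes called in controls 544 (98.2%) differed in the same direction in knockouts, and 244 (44.0% of the control calls and 75.5% of the knockout calls) were called in both. The share with the same direction among all genes tested was not computed. Across all 8608 genes, which are not independent, the differences correlated with r of 0.796. The difference was smaller in size in knockouts for 466 of the 554 genes, which were chosen for their size in controls.

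Of the 18 granule genes 14 were called higher in knockouts with a median of 2.62, and of the 35 B cell genes 20 were called lower with a median of -2.04. Ctsg differed by 6.40 ± 0.59 in knockouts and Cd79a by -4.38 ± 0.71 (adjusted p = 0.000208 and 0.00351). Slpi and Prg2 differed by 2.41 ± 0.55 and 2.69 ± 0.94 there, against 5.31 and 5.66 in controls, and Lef1 by -0.76 ± 0.30. Prg2 and Lef1 were not called in knockouts (adjusted p = 0.146 and 0.195). Cebpa differed by 2.69 ± 0.36 (adjusted p = 0.00122). The test of the difference between genotypes called 0 genes in limma's fit, with 228 at an unadjusted p under 0.05 and a smallest adjusted p of 0.148. With littermate pairs as a random block it called 3, 2 higher and 1 lower. For Slpi, Prg2, Lef1 and Cebpa the knockout difference minus the control difference was -2.90 ± 0.78, -2.98 ± 1.32, 1.98 ± 0.42 and -1.73 ± 0.51 (adjusted p = 1, 1, 1 and 1), none of which passed the threshold.

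**Figure D5:**
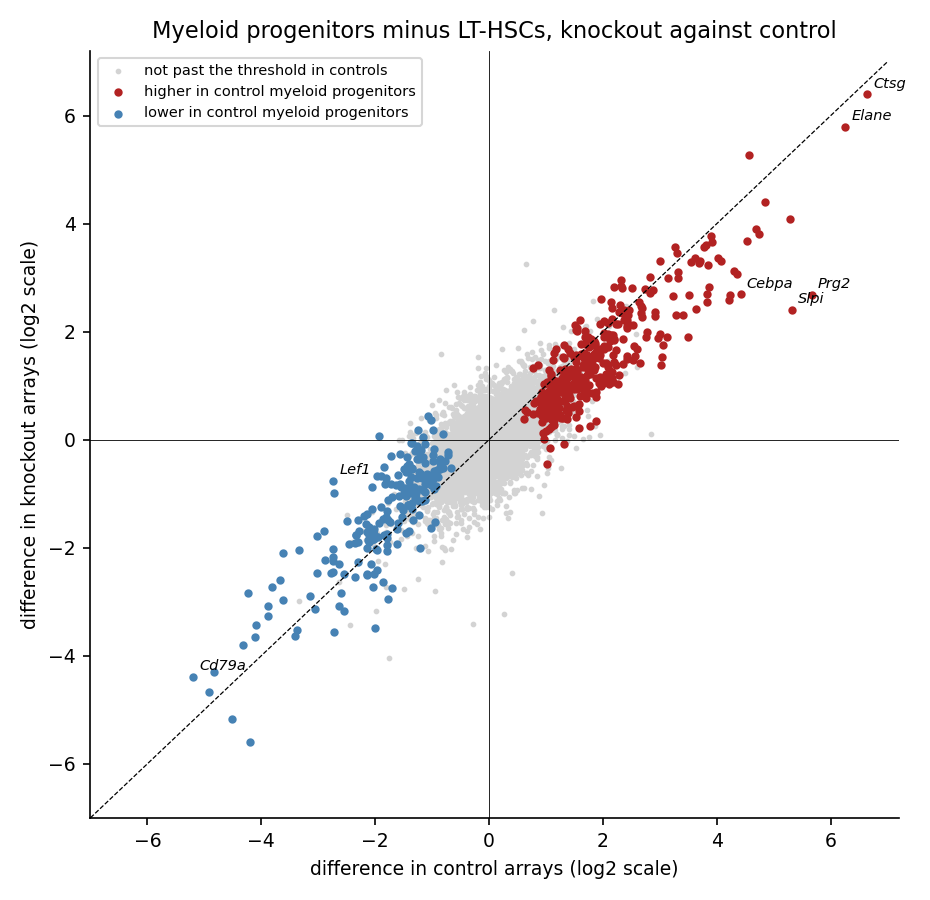
Difference between myeloid progenitors and LT-HSCs on the log2 scale in control arrays (horizontal axis) and in knockout arrays (vertical axis) for the 8608 genes tested, with genes called higher in control myeloid progenitors in red, called lower in blue and the diagonal dashed. Of the 554 called genes 544 share their direction, and most lie on the side of the diagonal towards a smaller knockout difference.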

How the data were processed

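RNA of sorted marrow cells was amplified (WT-Ovation Pico), labelled with biotin and hybridised to 1 array per pool of mice, per the labels' protocols. The authors deposited 1 intensity per probe set and array on a linear scale; how they summarised, background corrected and scaled these values is not given in the labels or files. Of 22690 probe sets 64 are controls, and the platform annotation gives 1 gene symbol to 20380, several to 691 and none to 1555.

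Values were taken as log2(intensity + 16) and quantile normalized over the 14 arrays. Probe sets had to lie above their array's 40th percentile on 2 or more arrays. A list member could pass through the arrays of a single population, so counts and medians of measured members can lean towards that population. Each gene was represented by the retained probe set of highest mean, so 8608 of 12393 genes were tested. Identifiers with _s_ or _x_ denote probe sets that may bind related transcripts. Limma 3.58.1 in R 4.3.3 fitted 6 group means to all 14 arrays with a mean-variance trend (degrees of freedom 8 residual and 5.4 prior). P-values were two-sided, adjusted over all genes by Benjamini-Hochberg and held against 0.05, and the median standard error was 0.32. Figures and summaries used Python 3.11.15, pandas 2.3.3, numpy 2.4.6 and matplotlib 3.10.9.

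The labels call the arrays biological replicates, each a pool of mice, so errors describe pools. For arrays the number of replicates limits the precision. The compared arrays, the gene lists and the markers were chosen with earlier results of these data known, and lists are described by counts and medians beside those of all genes, with no test of their own. Genes were named by a rule: the genes of the sort and Dnmt1, the 15 largest called differences in each direction without overlap between arrays, the 4 members of each list with the smallest p, and the defining markers. Others are marked where they appear. Not every gene that the rule names is given in the text. Alternatives covered the pseudocount, normalization, filter, choice of probe set, samples in the fit, trend, array weights, blocks and each array left out. Promoter sequences are RefSeq's on GRCm38.p6.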

Additional observations from a re-analysis of the deposited data

How the results depend on the processing

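The count of 554 genes was 324 with the compared groups alone in the fit and 367 with array weights, and stayed within 1.5 times of 554 under the other settings that kept all arrays. Calls higher numbered 215 and calls lower 109 with the compared groups alone, and calls lower numbered 134 with the control arrays alone and 132 with array weights. Fewer arrays in the fit leave fewer degrees of freedom. With 1 array left out the counts ran from 199 without LT-HSC array 1 to 725 without LT-HSC array 2 (140 to 430 higher, 59 to 295 lower); the lone remaining array is then assumed to vary like the other groups. In knockouts these ranges were 93 to 694, 62 to 401 and 31 to 293. Of the 554 genes 174 were still called without LT-HSC array 1 and 399 without array 2. The genotype interaction had 3 calls with littermate pairs as a random block, 2 higher and 1 lower, against 0 without it. Same-numbered arrays of the 2 populations did not deviate together (r of -0.12 and -0.42 in controls, -0.06 and -0.40 in knockouts). Some differently numbered arrays did, at up to 0.434, where the deviations of the 2 LT-HSC arrays mirror each other by construction. The numbers were not taken as pairs; with the number as a replicate block the fit called 451 genes.

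Of 94 named genes that were called, 46 kept the call under every setting run and none changed sign; 43 of 93 lost it without LT-HSC array 1 and 20 of 94 or fewer under each other setting. With the mean of each gene's probe sets 10 lost it. Several uncalled genes changed sign. Car1 was at 0.0049 with array weights, and with 1 array left out it ranged from -0.95 to 0.67, Gata1 from -1.51 to 0.33, Klf1 from -1.51 to 0.15, Hoxb5 from -1.43 to 0.65, Slamf1 from -1.92 to 0.24, Kit from -0.22 to 0.72 and Flt3 from -0.93 to 0.033. The causes were not tested. With 2 LT-HSC arrays, a difference of a gene that varies between them is poorly resolved.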

Other observations

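Several gene families that no list covered were looked at after their members had been seen among the called genes, so their counts are a description. For comparison, 4.08% of all genes tested were called higher and 2.36% lower. All families are taken whole, by symbol. Of 9 measured protein disulphide isomerases and partner oxidases of the endoplasmic reticulum, which form the disulphide bonds of secreted and granule proteins, 7 were called higher in myeloid progenitors and 0 lower, with a median of 1.61. Pdia6 read 1051, 634 and 1125 units in myeloid progenitors and 152 and 227 units in LT-HSCs (difference 2.16 ± 0.38, adjusted p = 0.00388 by limma), although another of its probe sets differed by -0.18, so the gene has no single direction here. The oxidase Ero1b differed by 1.61 ± 0.32 (adjusted p = 0.00856). In knockouts the family's median was 1.16. Among 8 measured annexins, calcium-dependent membrane-binding proteins, 4 were called higher and 0 lower, with a median of 1.43. Anxa1, a mediator of the resolution of inflammation, differed by 2.08 ± 0.43 and Anxa2 by 2.37 ± 0.64 (adjusted p = 0.0107 and 0.0417). With arrays left out the adjusted p exceeded 0.05 for Pdia6 without LT-HSC array 1 (0.0571), and for Ero1b without LT-HSC array 2 (0.0636), and for Anxa1 without either myeloid progenitor array 1 or LT-HSC array 2 (up to 0.0655), and for Anxa2 without any single array (up to 0.241).

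Cathepsins, the proteases of lysosomes and granules, included calls in both directions. Of 12 measured members (21 with a probe set) 4 were called higher and 1 lower, with a median of 0.75. The shares over all genes tested were 4.08% higher and 2.36% lower. Besides Ctsg the higher ones were Ctsb, Ctsh and Ctsz, with differences of 1.33 ± 0.26, 2.96 ± 0.43 and 1.70 ± 0.24. The Ctsz probe set may bind related transcripts. Ctse, cathepsin E, was the one called lower, at 346, 809 and 836 units in myeloid progenitors and 1502 and 1590.1 units in LT-HSCs (difference -1.37 ± 0.33, adjusted p = 0.0234). Its probe set may bind related transcripts, and its other probe set differed by -0.24 and was not called (adjusted p = 0.836), so the only call lower rests on 1 probe set. The adjusted p exceeded 0.05 for Ctsb without LT-HSC array 1 (0.111), and for Ctse without either of LT-HSC arrays 1 and 2 (up to 0.162).

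All 5 Gimap GTPases with a probe set were called lower in myeloid progenitors, where 2.36% of all genes tested were. Their median was -1.8 in controls and -2.01 in knockouts. Gimap4 read 36.8, 23.8 and 29.4 units in myeloid progenitors and 70.6 and 118 units in LT-HSCs (difference -1.21 ± 0.31, adjusted p = 0.0331, and up to 0.134 with any single array left out). On the control MPP arrays it read 45.2 and 57.8 units, between the 2 populations. Of 7 measured immunoglobulin kappa genes 2 were called lower, with a median of -0.87.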
